A study of Mus musculus with 19 samples.

Results

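The size of the transcriptional response to lipopolysaccharide (LPS, a component of the outer membrane of Gram-negative bacteria) was compared between 2 classes of cultured mouse microglia, those quiet and those already inflamed under vehicle. The rule took each vehicle library with the LPS library of the next number, gave the LPS minus vehicle difference in log2 CPM (counts scaled to a common library size) for every gene, and set 4 high-numbered pairs (41/42, 51/52, 57/58 and 59/60) against 5 low-numbered pairs (3/4, 7/8, 9/10, 11/12 and 21/22). The classes were thus chosen by library number after vehicle levels of inflammatory genes and the LPS responses themselves had been seen, and those values are given as a description. The rule was applied to the 6222 of 16941 genes with a mean of at least 20 CPM. The pairs hold 18 of the 19 libraries of the study, 8 in the high class and 10 in the low class. For WT LPS replicate 1 the label says 5 and the count file 6, and with no vehicle partner it was not compared. What the library numbers stand for (a day of culture, a preparation or an order of extraction) is not given in the sources used here.

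Microglia came from the cortex of C57BL/6 mice of 10 to 11 months, either wild type (WT) or APP, that is, hAPPJ20 animals with a human amyloid precursor protein transgene (PDGFAPPSw,Ind). The transgene is driven by a PDGF promoter, used to express it in neurons. Culture lasted 4 weeks, in medium with 10% serum and M-CSF, a macrophage growth factor, at 5 ng/mL. Cultures then received medium (vehicle) or 100 ng/mL LPS for 6 h, and all recovered for 16 h in fresh medium. The low class holds 2 WT and 3 APP pairs (9/10 and 21/22 are WT) and the high class 2 WT and 2 APP pairs (41/42 and 57/58 are WT). By the Y-linked transcript Ddx3y, 3 of the 5 low pairs and 1 of the 4 high pairs were male. The labels do not say which libraries come from separate animals or cultures. A p-value below is set against the spread of the LPS response between library pairs, some of which may be technical.

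LPS binds a receptor complex of Cd14, Ly96 (MD-2) and Tlr4. One arm of the signal, through Myd88, frees NF-kB from its inhibitor Nfkbia and switches on cytokines, chemokines and enzymes such as Ptgs2 and Acod1. The other arm, through Ticam1, leads to interferon beta, and secreted interferon then induces antiviral genes such as Isg15, Ifit3 and Rsad2. Both arms induce their own brakes (Nfkbia, Tnfaip3, Socs3, Irak3), and macrophages that have met LPS before are known to answer a later dose differently, a state called tolerance for some genes and priming for others.

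Promoters of 4 genes show the sequence elements through which these arms are known to act. They are printed as examples that hold a match, from genes whose response did not overlap between the classes. Il12b, Cxcl3, Cxcl10, Ifi44 and Cxcl5, among others, differed more between the classes. Each run is the RefSeq promoter window (GRCm38.p6), 250 bases before to 50 after the gene's start, 5′ to 3′ on the gene's strand. Capitals mark matches, on either strand, to a kB-type motif (GGGA and TTCC with any 2 bases between them), in the chemokine genes Cxcl1 (chr5:90890995-90891294, plus strand) and Cxcl2 (chr5:90903649-90903948, plus strand), and to an ISRE-type motif of interferon-stimulated genes (GAAA and GAAA with any 2 bases between them), in Ifit3 (chr19:34583279-34583578, plus strand) and Isg15 (chr4:156200769-156201068, minus strand).
Cxcl1: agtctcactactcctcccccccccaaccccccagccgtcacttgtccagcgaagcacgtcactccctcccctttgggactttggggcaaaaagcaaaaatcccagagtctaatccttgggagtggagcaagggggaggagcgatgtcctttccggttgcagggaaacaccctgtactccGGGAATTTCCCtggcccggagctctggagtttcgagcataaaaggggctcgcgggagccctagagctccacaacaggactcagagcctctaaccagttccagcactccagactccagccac
Cxcl2: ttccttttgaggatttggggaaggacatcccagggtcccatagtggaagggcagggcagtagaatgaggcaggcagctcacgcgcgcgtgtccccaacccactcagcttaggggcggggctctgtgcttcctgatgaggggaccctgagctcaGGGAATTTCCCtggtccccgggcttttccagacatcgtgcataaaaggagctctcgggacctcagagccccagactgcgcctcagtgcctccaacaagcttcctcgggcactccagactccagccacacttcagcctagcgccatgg
Ifit3: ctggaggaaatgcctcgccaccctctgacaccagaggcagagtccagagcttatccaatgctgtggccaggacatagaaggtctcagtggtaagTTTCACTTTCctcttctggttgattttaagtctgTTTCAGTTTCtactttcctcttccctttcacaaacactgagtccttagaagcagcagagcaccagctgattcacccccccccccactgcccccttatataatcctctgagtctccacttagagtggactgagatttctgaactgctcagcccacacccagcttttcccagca
Isg15: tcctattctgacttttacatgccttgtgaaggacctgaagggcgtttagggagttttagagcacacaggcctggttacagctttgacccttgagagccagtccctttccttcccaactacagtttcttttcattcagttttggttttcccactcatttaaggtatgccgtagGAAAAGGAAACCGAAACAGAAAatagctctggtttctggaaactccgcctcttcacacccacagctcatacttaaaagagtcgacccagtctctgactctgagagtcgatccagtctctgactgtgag
Matches on both strands or at neighbouring positions overlap: the capitals hold 2 matches in Cxcl1, Cxcl2 and Ifit3 and 3 in Isg15. The letters of the kB-type motif were in 1.63% of all 27025 genes with a promoter window and the ISRE-type letters in 3.99%. A gene with several windows counted if any of them held a match. Of the 22 cytokine and chemokine genes of at least 20 mean CPM, 15 had a window, and 6 of these (40%) held the kB-type letters against 1 with the ISRE-type letters. Of 37 interferon-stimulated genes 28 had a window, and 17 (60.7%) held the ISRE-type letters against 3 with the kB-type letters. A match is a description of the window and no evidence of binding.

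The labels quiet and inflamed were checked on the vehicle libraries. Acod1, the enzyme that makes itaconate, stood at 30.7, 14.1, 25.8, 24.1 and 31 CPM in the vehicle libraries of the low pairs, and at 106, 148, 167 and 127 in those of the high pairs (values here and below follow the order of pairs given above). Interferon-stimulated Isg15, named after its values were seen, stood at 51.2, 53.2, 42.5, 75.5 and 99.8 against 306, 568, 688 and 1686 CPM. The vehicle levels of the classes did not overlap for either gene. Over the 22 cytokine and chemokine genes, the median difference in vehicle level, high minus low, was 2.18 (log2), with 7 genes without overlap, all higher in the high class. For 37 interferon-stimulated genes it was 1.21, with 17 genes without overlap, again all higher. Over all 6222 genes that median was 0.0029, and 324 genes (5.21%) were higher and 223 (3.58%) lower without overlap. Tnf did not follow this pattern: its vehicle levels were 28.7, 19.2, 35.1, 51.7 and 16.4 CPM in the low pairs and 25.5, 26.8, 24.4 and 22.3 in the high pairs, which overlap. These vehicle values are part of how the cultures came to be called quiet or inflamed. The response is the LPS value minus the same vehicle value, so response and vehicle level are not independent. At a given LPS level, a higher vehicle level gives a lower response. The part of vehicle level in the difference between the classes was not tested.

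Library totals lay between 13065257 and 31248988 counts, and the floor of 3 counts that stands in for a count of 0 came to 0.0970 to 0.250 CPM in a library. This floor covers counting error only. General macrophage markers were present in every library (Tyrobp at 159 to 1559 CPM, C1qa at 112 to 955), while the microglia markers Tmem119 (at most 17.1 CPM), P2ry12 (at most 28.8) and Sall1 (at most 13.6) had 0 counts in 3, 6 and 2 of the 18 libraries. The summed level of 20 macrophage identity genes was 15019 to 27659 CPM in the low libraries and 19658 to 23708 in the high libraries 41, 42, 51 and 52, but 4699 to 9397 in libraries 57 to 60. The fibroblast and mural cell markers (25 genes) summed to 1584 to 7301 CPM in the low class and 2218 to 8399 in the high class. In bulk RNA, fewer cells of a type and less RNA per cell cannot be told apart. The part of macrophage content in the differences between the classes was not tested. Pairs 41/42 and 51/52 do not share the low marker sums, and their values are given one by one below.

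The effect of LPS over all 9 pairs is the test that does not use the split by number. Il1b, Cxcl1, Il6 and Tnf were among the genes that rose, and Igf1, Apoe, Trem2 and Mrc1 among those that fell. Of 12284 genes tested with edgeR's quasi-likelihood test and pair as a block, 200 (1.63%) passed an adjusted p of 0.05: 97 rose (0.790%) and 103 fell (0.838%), and 1299 had an unadjusted p under 0.05. Of these, 95 risen (1.53%) and 102 fallen genes (1.64%) belong to the 6218 tested genes of at least 20 mean CPM. Among the risen, 63 were higher after LPS in each of the 9 pairs, and among the fallen, 71 were lower in each. With no block the same comparison called 3 genes, with DESeq2 581, and with 1 pair left out 97 to 215.

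The 95 that rose had a median response of 1.29 in the low pairs (a 2.44-fold increase) and 0.52 in the high pairs (1.43-fold). Their mean response was smaller in the high pairs for 86 and larger for 9. For 47 the pair values did not overlap, and each of these 47 was lower in the high pairs. Pair by pair, the median over these genes was 1.09 to 1.41 in the 5 low pairs and 0.35 to 0.63 in the 4 high pairs. The 102 that fell had a median response of −0.83 in the low pairs and −0.50 in the high pairs. The fall was smaller in the high pairs for 76 and larger for 26, and 13 did not overlap, all with the smaller fall in the high pairs. Over all 6222 genes, 241 (3.87%) had pair values without overlap that were lower in the high pairs and 119 (1.91%) had values that were higher. The median difference over all genes was −0.022, and 52.3% of the genes were below 0. The rule rests on this contrast, so nothing is read from these shares. The calls over the 9 pairs leaned on the low pairs: there were 97 to 131 without 1 low pair and 142 to 215 without 1 high pair. A gene could thus enter the called set through its low pairs, so the counts within that set are also a description. The edgeR contrast between the classes, which called 71 of 12284 genes (0.578%), 2 higher and 69 lower in the high pairs, is given as a count only.

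**Figure D1:**
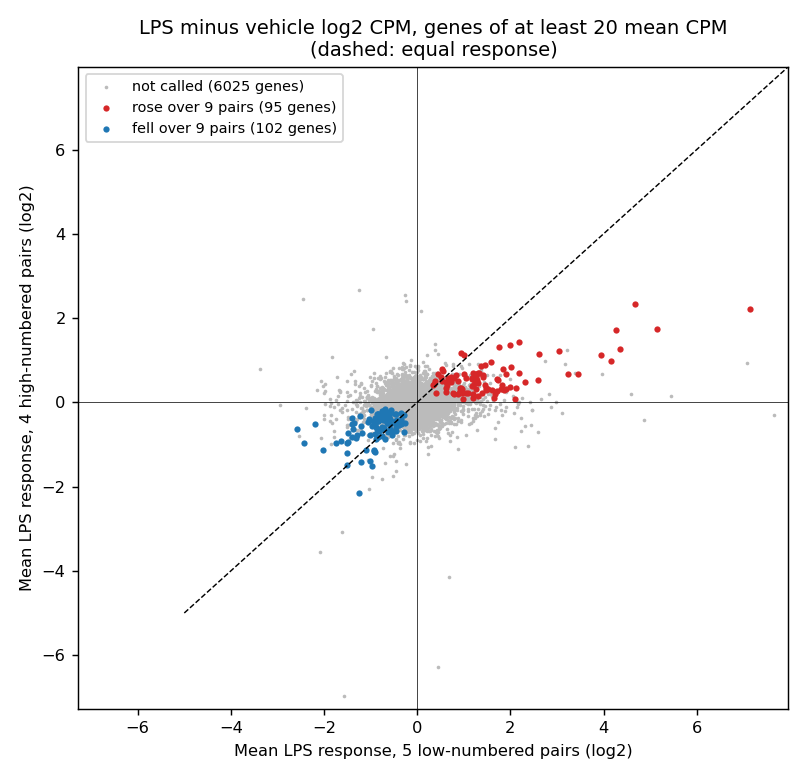
Mean LPS response (LPS minus vehicle, log2 CPM) of each of 6222 genes in the 5 low-numbered pairs (x axis) and the 4 high-numbered pairs (y axis), with the genes called over the 9 pairs in red (95 rose) and blue (102 fell) and the dashed line at equal response. Most red points lie below the dashed line (86 of 95) and most blue points above it (76 of 102).

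Over all genes, too, the spread of responses was wider in low pairs. In a low pair, 10.3% to 18.7% of the 6222 genes differed by more than 1 (log2) between LPS and vehicle, against 4.92% to 7.04% in a high pair. The SD of the response over genes was 0.72 to 1.10 in low pairs and 0.56 to 0.61 in high pairs. Neither range overlaps between the classes. Pair 3/4 had the largest SD, with pair 11/12 next at 1.01, and pair 59/60 the smallest. Libraries 3 and 4 had counts for 14333 and 11161 genes, and libraries 11 and 12 for 11991 and 11595. The other low libraries had counts for 12238 to 13360 genes and the high libraries for 12624 to 14317. The part of gene detection in the spread of responses was not tested.

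The interleukin-1 genes, which encode the main early fever and leukocyte-activating cytokines of macrophages, rose with LPS over the 9 pairs and did so from very different starting levels. Il1b stood at 15, 26.1, 14.1, 6.41 and 10.7 CPM under vehicle and 328, 731, 245, 233 and 306 CPM after LPS in the low pairs. In the high pairs it stood at 61.6, 52.6, 71.1 and 132 CPM under vehicle and 389, 266, 429 and 434 CPM after LPS. All 4 high vehicle libraries were above all 5 low ones, while the LPS libraries overlapped. The response was 4.67 ± 0.40 (SD, n = 5) in the low pairs and 2.33 ± 0.43 (SD, n = 4) in the high pairs, and over the 9 pairs Il1b changed by 3.63 ± 0.36 (log2 ± SE, adjusted p = 0.000148, edgeR). Il1a was at 1.11, 5.21, 6.27, 0.505 and 3.10 CPM under vehicle in the low pairs and 31, 28.2, 44.5 and 43.7 in the high pairs, and after LPS at 84.5, 152, 76.1, 59.1 and 75.2 and 146, 96.6, 135 and 109 CPM. The response of Il1a was 5.15 ± 1.23 (SD, n = 5) and 1.73 ± 0.38 (SD, n = 4), without overlap (over 9 pairs 3.51 ± 0.56, adjusted p = 0.00354). The difference for Il1a was −3.42, and −2.16 in WT pairs alone. Il1rn, the natural receptor antagonist of interleukin-1, rose over the 9 pairs by 0.90 ± 0.15 (adjusted p = 0.00415, edgeR), and its pair values overlapped (0.65, 1.64, 1.64, 1.08 and 0.90 in the low pairs and 1.03, 0.54, 0.70 and −0.043 in the high pairs).

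Chemokines that draw neutrophils showed the same layout, with more scatter in level. Cxcl1 was at 159, 89.7, 15.1, 15 and 30.9 CPM under vehicle in the low pairs and rose to 2799.9, 1027, 310.1, 324 and 926 CPM, while in the high pairs it went from 123, 207, 972 and 799 to 564, 1042, 2418 and 1619 CPM. Library 3 reached a level of Cxcl1 within the range of the high vehicle libraries, and pair 3/4 had a response of 4.13. Cxcl2 went from 21.9, 98.9, 28.3, 6.61 and 39.4 to 497, 1198, 484, 406 and 493 CPM in the low pairs and from 167, 364, 2173 and 1385 to 573, 1055, 4089 and 2484 CPM in the high pairs. Libraries 57 and 59 thus held more Cxcl2 under vehicle than any low library after LPS, and it increased further in both pairs. The responses were 4.26 ± 0.50 (SD, n = 5) against 1.71 ± 0.64 (SD, n = 4) for Cxcl1 and 4.35 ± 0.95 (SD, n = 5) against 1.27 ± 0.46 (SD, n = 4) for Cxcl2. Over the 9 pairs Cxcl1 rose by 3.15 ± 0.40 (adjusted p = 0.000669) and Cxcl2 by 2.94 ± 0.48 (adjusted p = 0.00415).

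Several cytokine genes had vehicle libraries at 0 counts, so their log2 responses depend on the prior count and only bounds can be given. Cxcl5 had 0 counts in vehicle libraries 7, 9, 11 and 21 and 4.72 to 39.3 CPM in their LPS partners, at least 31.2-fold to 283-fold higher against a floor of 3 counts per library. In the high pairs Cxcl5 went from 5.72, 19.2, 41.7 and 429.5 to 52.9, 93.8, 209 and 885 CPM, and it rose over the 9 pairs (adjusted p = 0.00742). Il12b, a subunit of interleukin-12 and interleukin-23, had 0 counts in vehicle libraries 3, 7, 11 and 21 and reached 8.44 to 135 CPM after LPS, at least 60.7-fold to 951-fold higher. In the high pairs Il12b stood at 19.8, 17.4, 86.6 and 238 CPM under vehicle and 39.8, 16.8, 74.4 and 64 CPM after LPS, so that of the high pairs only 41/42 was higher after LPS. Cxcl3 went from 0.222, 0, 0.938, 0 and 0 to 55.9, 30.2, 30.8, 9.57 and 21.8 CPM in the low pairs and from 14.6, 8.57, 57.1 and 104 to 39.8, 14.8, 127 and 135 CPM in the high pairs. Cxcl10, an interferon-induced chemokine for T cells, went from 11.4, 2.23, 0, 0 and 3.38 to 55.7, 17.2, 35.7, 48.4 and 10.1 CPM in the low pairs, and from 14.7, 7.28, 68.2 and 213 to 26, 4.09, 53.6 and 83.3 CPM in the high pairs, where 3 of 4 pairs were lower after LPS. Over the 9 pairs Il12b, Cxcl3 and Cxcl10 did not pass the test (adjusted p = 0.409, 0.0823 and 0.607).

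**Figure D2:**
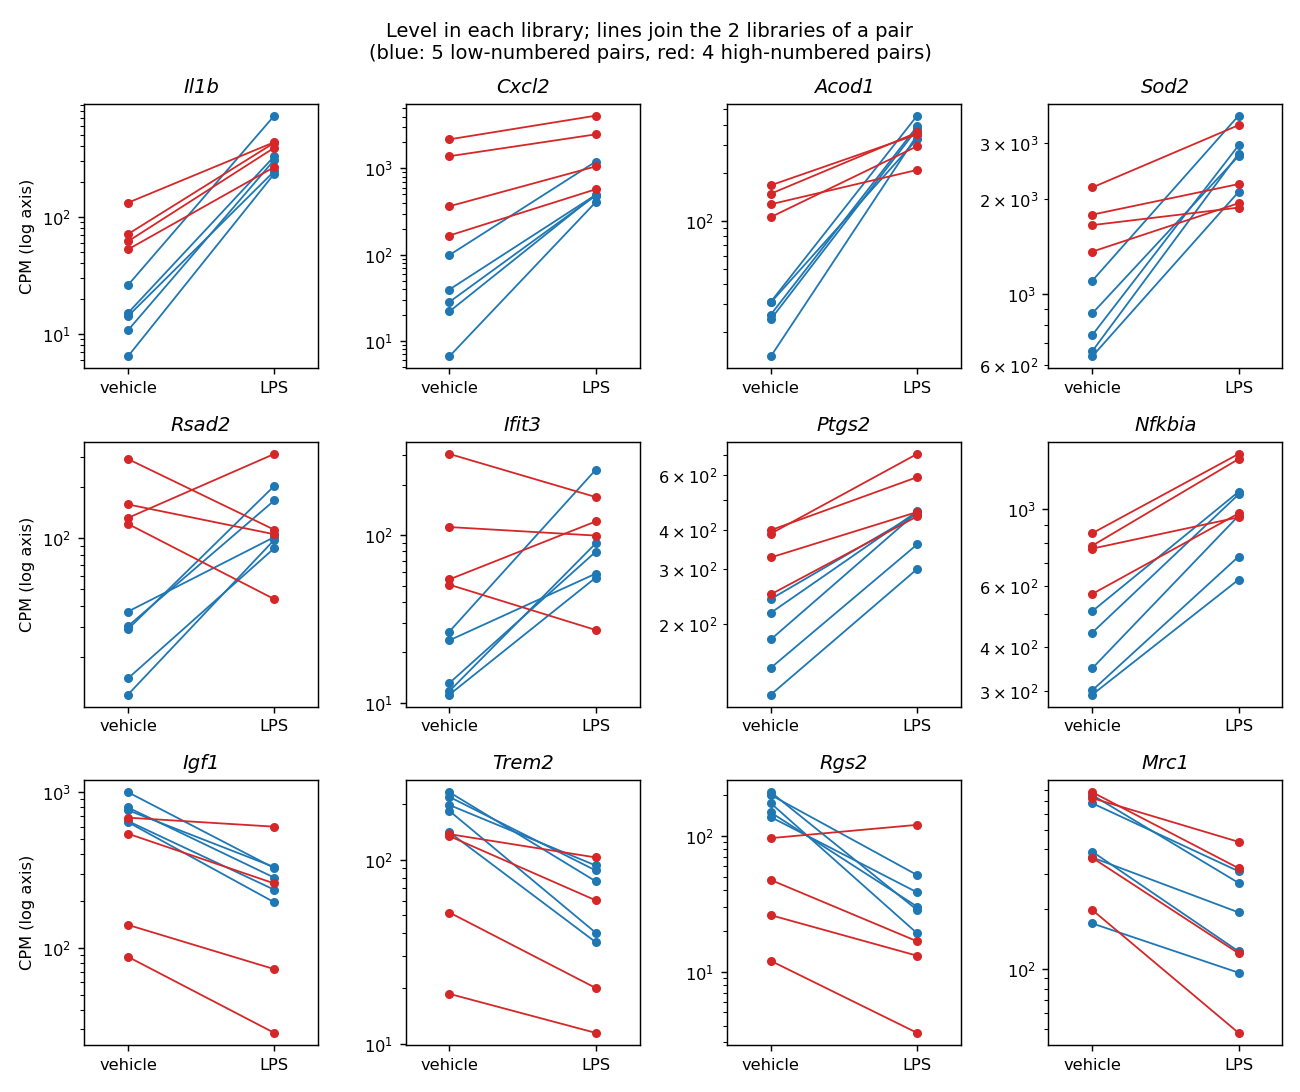
Level of 12 genes (CPM, log axis) in each of the 18 libraries, with a line joining the vehicle and LPS library of a pair, blue for the 5 low-numbered and red for the 4 high-numbered pairs. For Il1b, Acod1 and Sod2 the red points lie above all blue points under vehicle. After LPS they lie among the blue points for Il1b, and among or below them for Acod1 and Sod2. For Mrc1 the lines of both colours run alike.

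The monocyte and T cell chemokines Ccl2, Ccl3, Ccl4 and Ccl5 rose over the 9 pairs. Ccl2, which draws monocytes, was nearly constant at 205, 209, 202, 198 and 216 CPM in the low vehicle libraries and reached 977, 959.7, 842, 741 and 1201 CPM after LPS. In the high pairs Ccl2 went from 361, 427, 1438 and 1418 to 622, 807, 2039 and 2055 CPM. The response was 2.18 ± 0.21 (SD, n = 5) against 0.69 ± 0.20 (SD, n = 4), and the change over the 9 pairs 1.52 ± 0.21 (adjusted p = 0.00125, edgeR). Ccl3 had overlapping vehicle levels (191, 139, 259.5, 355 and 150.4 and 428, 229, 352 and 199 CPM). The responses of Ccl3 did not overlap (2.29, 2.08, 1.54, 1.39 and 1.20 in the low pairs and 0.14, 0.66, 0.56 and 0.84 in the high pairs). Its LPS levels were 936, 589, 755, 932 and 346 and 472, 362, 517 and 357 CPM. Ccl4, a close relative of Ccl3, had responses of 1.13, 1.69, 1.76, 1.16 and 0.84 and 0.68, 0.89, 0.37 and −0.11, which overlap. Ccl5 varied most: it went from 10.4, 48.6, 209.6, 528 and 15.2 to 995, 1480.1, 1222, 1601 and 557 CPM in the low pairs and from 750.5, 298, 191 and 437 to 1085, 841, 604 and 507 CPM in the high pairs. Low libraries 9 and 11 already held 209.6 and 528 CPM of Ccl5 under vehicle, and the responses of those pairs were 2.54 and 1.60. Ccl5 was called over the 9 pairs (2.56 ± 0.61, adjusted p = 0.0449), but not in 7 of the 9 fits that left out 1 pair, where the adjusted p reached 0.135 without pair 7/8.

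Il6 went from 43.5, 20.3, 12.7, 4.14 and 37.9 to 269, 124, 113, 85.6 and 214 CPM in the low pairs and from 73.1, 89.4, 203 and 330.1 to 171, 182, 574 and 717 CPM in the high pairs. Its response was 3.04 ± 0.77 (SD, n = 5) against 1.22 ± 0.21 (SD, n = 4), without overlap, and it rose over the 9 pairs by 2.19 ± 0.29 (adjusted p = 0.000828). Tnf, the first cytokine that macrophages release after LPS, had overlapping vehicle levels, as given above. Its LPS levels were 76.8, 128, 89.3, 111 and 72.5 CPM in the low pairs and 60.6, 39.2, 101 and 58 in the high pairs, and the responses of 1.42, 2.74, 1.34, 1.09 and 2.13 and 1.25, 0.55, 2.05 and 1.38 overlapped. Tnf rose in 9 of 9 pairs (1.55 ± 0.20, adjusted p = 0.000694).

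As a group, 14 of the 31 tested cytokine and chemokine genes rose over the 9 pairs (97 of 12284 genes, 0.790%, rose in all) and 0 fell. All 22 of at least 20 mean CPM had the lower mean response, with its sign, in the high pairs, 16 of them without overlap (3.87% of all genes). Ccl6 and Il23a were above 0 on average in the low pairs and further below 0 in the high pairs. The 6 genes with overlap were Ccl5, Lif, Il23a, Ccl4, Tnf and Csf1. The list's median response was 2.61 in the low pairs and 0.62 in the high pairs, with a median difference of −1.98 (−1.91 with the values at 0 counts set to their bounds). By pair, the list median was 2.27, 2.67, 2.39, 2.05 and 2.30 in the low pairs and 0.80, 0.74, 0.49 and 0.36 in the high pairs. The median difference was −1.56 without libraries 57 to 60, −1.74 in WT pairs alone and −2.27 in APP pairs alone. Ccl6, made by macrophages without need of LPS, had a response below 0 in every high pair (−0.79, −0.42, −1.13 and −1.03), and its low pairs lay on both sides of 0 (1.06, 0.66, −0.092, −0.35 and −0.19).

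Effector genes of NF-kB rose by different amounts. Acod1 reached 325, 344, 391, 377 and 456 CPM after LPS in the low pairs and 293, 358, 348 and 208 in the high pairs, so levels after LPS overlapped although vehicle levels did not. The responses were 3.40, 4.60, 3.92, 3.96 and 3.87 and 1.47, 1.27, 1.06 and 0.71, and Acod1 rose over the 9 pairs by 2.71 ± 0.42 (adjusted p = 0.00323). Sod2, the manganese superoxide dismutase of mitochondria, went from 637, 1102, 743, 869.6 and 661 to 2098, 3648, 2941, 2723 and 2768 CPM in the low pairs and from 1779.9, 2168, 1361 and 1649.8 to 2222, 3406, 1933 and 1873 CPM in the high pairs. Its response was 1.83 ± 0.18 (SD, n = 5) against 0.42 ± 0.21 (SD, n = 4) and its change over the 9 pairs 1.20 ± 0.20 (adjusted p = 0.00415). Clec4e (Mincle, a receptor for fungal and mycobacterial glycolipids) had responses of 2.94, 1.97, 2.87, 2.70 and 2.53 and 0.80, 0.77, 0.37 and 0.15, and rose over the 9 pairs (adjusted p = 0.00768). Fpr2, a formyl peptide receptor, was higher after LPS in 5 of 5 low pairs and in 1 of 4 high pairs (−0.68, 0.59, −0.34 and −0.58), and did not pass the test over the 9 pairs (adjusted p = 0.236).

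Ptgs2, the inducible enzyme of prostaglandin synthesis, showed a smaller gap: it went from 178, 144, 217, 239.8 and 118 to 457, 359.5, 459, 452 and 299.6 CPM and from 248, 399.7, 389.6 and 326 to 443, 592, 704 and 457 CPM. The response was 1.20 ± 0.20 (SD, n = 5) against 0.68 ± 0.19 (SD, n = 4), without overlap, since pair 11/12 at 0.91 stayed just above pair 57/58 at 0.85. Ptges, which acts after Ptgs2, and the arginine transporter Slc7a2, both named after their values were seen, rose over the 9 pairs (1.20 ± 0.14 and 1.69 ± 0.18, adjusted p = 0.000487 and 0.000191), with overlapping responses. Slc7a2 had 1.52, 1.27, 2.79, 1.45 and 2.87 in the low pairs and 1.57, 1.44, 1.57 and 0.82 in the high pairs. The acute-phase genes Saa3 and Lcn2 rose too (1.92 ± 0.30 and 1.3 ± 0.17, adjusted p = 0.00336 and 0.000669) and overlapped between the classes. Saa3 had vehicle levels of 132, 231, 1465, 1878 and 499 CPM in the low pairs, where libraries 9 and 11 matched the 1769.8, 2238, 658 and 1686 CPM of the high pairs. Nos2, the inducible nitric oxide synthase, was at 0 counts in 3 vehicle libraries and 1 LPS library, never above 32.1 CPM, and did not pass the test (adjusted p = 0.557).

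Of the 45 tested genes of the NF-kB and LPS effector list, 19 rose over the 9 pairs and 0 fell (0.790% and 0.838% of all genes). Of its 34 genes of at least 20 mean CPM, 30 had the lower mean response in the high pairs, 12 without overlap (3.87% of all genes), with a median response of 1.24 against 0.37. The 4 exceptions were Hif1a, Cd44, Icam1 and Relb. Relb, an NF-kB subunit, had a mean response of −0.67 in the low and 1.07 in the high pairs, with overlap. Outside the list, Serpinb2 (plasminogen activator inhibitor 2) went from 7.25, 41, 61.4, 51.9 and 8.66 to 165, 384, 267, 255 and 144 CPM and from 278, 1118, 340.1 and 311 to 524, 1424, 821 and 339 CPM, with responses of 3.23 ± 1.04 (SD, n = 5) and 0.67 ± 0.52 (SD, n = 4). Serpinb2 was called over the 9 pairs (adjusted p = 0.0194) but not without pair 7/8, 9/10, 11/12 or 21/22 (adjusted p = 0.0508 to 0.0767).

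Of 23 tested genes that restrain the LPS signal, 6 rose and 1, Rgs1, fell over the 9 pairs (0.790% and 0.838% of all genes). Of the 18 of at least 20 mean CPM, Nfkbia, Irak3 and Otulin had lower responses in the high pairs without overlap (3.87% of all genes). Nfkbia, the inhibitor of NF-kB and itself an NF-kB target, went from 292, 300.5, 348, 508 and 441 to 627, 731, 958, 1124 and 1104 CPM in the low pairs and from 570.1, 853, 786 and 770.4 to 973, 1445, 1396 and 949 CPM in the high pairs. Its response was 1.26 ± 0.14 (SD, n = 5) against 0.67 ± 0.25 (SD, n = 4), and it rose by 1.00 ± 0.11 over the 9 pairs (adjusted p = 0.000181). Irak3 (IRAK-M), a kinase-like inhibitor of Toll-like receptor signalling in macrophages, had responses of 2.12, 1.87, 1.69, 1.69 and 1.91 in the low pairs and 0.20, 0.46, 0.52 and 0.033 in the high pairs. After LPS it reached 124, 221, 183, 112 and 117 CPM in the low and 74.8, 108, 92.1 and 66.7 CPM in the high pairs, so that here the LPS libraries of the high pairs were the lower ones. Irak3 was called over the 9 pairs (1.17 ± 0.23, adjusted p = 0.0163) but not without pair 7/8, 9/10, 11/12 or 21/22 (adjusted p = 0.0524 to 0.0704). Otulin, a deubiquitinase, had mean responses of 0.34 and −0.57, which did not pass the test. Socs3, an inhibitor of cytokine receptor signalling, rose by 1.34 ± 0.24 (adjusted p = 0.00689), with overlap through pair 3/4 at 0.84 against high values up to 0.89. Tnfaip3 (A20) had responses of 0.26, 0.66, 1.15, 2.32 and 1.71 and 0.60, −0.20, 0.22 and 0.63 and did not pass the test (adjusted p = 0.106). Dusp1, Zfp36 and Atf3, which act early, had mean responses that differed by at most 0.089 between the classes (0.53 and 0.54 for Dusp1). Il10, an anti-inflammatory cytokine, stayed at or below 20.6 CPM, with 0 counts in 3 vehicle and 1 LPS library, and did not pass the test (adjusted p = 0.527).

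For the LPS receptor the classes overlapped. Tlr4 was at 23.9, 46.9, 36.5, 43.2 and 30.6 CPM under vehicle in the low pairs and 41.9, 25.2, 17.5 and 14 in the high pairs, and its responses of −0.16, −0.46, −0.18, −0.30 and −0.41 and −1.23, −0.063, 0.18 and −0.18 overlapped (over 9 pairs −0.31 ± 0.19, adjusted p = 0.689). Ly96 was likewise not called (adjusted p = 0.893). Cd14, which hands LPS to the receptor, rose over the 9 pairs by 0.97 ± 0.14 (adjusted p = 0.00156), with responses of 1.05, 0.76, 1.54, 1.33 and 1.66 and 0.58, 0.43, 0.51 and 0.85 that overlapped in pair 7/8. Cd14 was the only 1 of 20 tested receptor and adaptor genes to pass (1.63% of all tested genes passed). The list's 14 genes of at least 20 mean CPM had a median difference between the classes of 0.012. Of the 14, 7 were lower in the high pairs and 0 were without overlap (3.87% lower and 1.91% higher over all genes).

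For interferon-stimulated genes the median response was above 0 in the 5 low pairs and on both sides of 0 in the high pairs, and all but 1 missed the test over the 9 pairs. Isg15, a ubiquitin-like modifier, reached 671, 486, 584, 437 and 331 CPM after LPS in the low pairs. In the high pairs it stood at 629, 532, 655 and 926 CPM after LPS, with the vehicle values given above, and the responses were 3.71, 3.19, 3.78, 2.53 and 1.73 and 1.04, −0.094, −0.07 and −0.86. Ifit3 went from 26.5, 13.1, 11.7, 11.2 and 23.5 to 245, 79.5, 89.2, 55.7 and 58.8 CPM in the low pairs and from 54.4, 50.6, 112 and 305 to 121, 27.1, 99.3 and 169 CPM in the high pairs. Rsad2 (viperin) went from 12, 15, 29.2, 30.4 and 37 to 97.9, 87.4, 203, 167 and 102 CPM in the low pairs, and from 132, 121, 158 and 293 to 313, 43.8, 106 and 112 CPM in the high pairs. Each of these was higher after LPS in 5 of 5 low pairs and in 1 of 4 high pairs, pair 41/42. Over the 9 pairs they did not pass the test (adjusted p = 0.107 for Isg15, 0.194 for Ifit3 and 0.37 for Rsad2, edgeR), but without libraries 57 to 60 Ifit3 did (adjusted p = 0.0305). The difference between the classes was −2.66 for Ifit3 and −3.0 for Rsad2. It was −1.63 and −1.80 in WT pairs alone and −3.59 and −4.10 in APP pairs alone. In female pairs it was −3.71 and −4.06, and in male pairs, with 1 high pair, −0.94 and −0.91.

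Irf7, the transcription factor that amplifies interferon production, had responses of 1.86, 3.63, 2.52, 1.87 and 2.23 in the low pairs and −0.03, −1.08, 1.53 and −0.39 in the high pairs. Ifi209 had 3.12, 3.10, 2.12, 2.77 and 1.82 and 0.12, −0.79, −0.73 and −1.41, and Iigp1, an interferon-inducible GTPase, 2.88, 2.33, 1.66, 7.58 and 1.05 and 0.56, −0.81, 0.17 and −0.93. In pair 11/12 the vehicle library held 0.101 CPM of Iigp1, near the floor. Ifi44 had 0 counts in vehicle libraries 9 and 11, which makes its LPS level there at least 489.8-fold and 230.3-fold higher, and in the high pairs it stood at 32.7, 36.8, 105 and 315 CPM under vehicle and 79.8, 33.1, 123 and 190.4 after LPS. Gbp2, a guanylate-binding protein, was the only 1 of the 47 tested interferon-stimulated genes to be called (2.20 ± 0.45, adjusted p = 0.0198), and it lost the call without pair 3/4, 7/8, 11/12 or 21/22 (adjusted p = 0.0512 to 0.0780). Its responses were 3.13, 3.35, 5.05, 3.22 and 2.52 and 1.11, 1.11, 0.89 and −0.43.

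Of the 37 interferon-stimulated genes of at least 20 mean CPM, 35 had a mean response above 0 in the low pairs and 15 in the high pairs. For 34 the mean response was lower in the high pairs, 20 of them without overlap (3.87% of all genes). The exceptions were the transcription factors Irf9, Irf1 and Irf8. The list's median response was 1.41 in the low pairs and −0.10 in the high pairs, and by pair it was 1.83, 1.53, 1.58, 1.43 and 0.77 against 0.25, −0.34, 0.23 and −0.57. Both WT high pairs were thus slightly above 0 and both APP high pairs below it. The median difference was −1.57 in all, −1.66 without libraries 57 to 60, −1.05 in WT pairs and −2.22 in APP pairs. It was −0.99 in male pairs, with 1 high pair, and −1.90 in female pairs. Whether genotypes differ in this was tested only as the genotype difference in the LPS response given below. In LPS libraries alone, the median difference in level between the classes was −0.20, with 1 of 37 genes lower without overlap (2.75% of all genes).

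Class I antigen presentation, which interferon also induces, had 3 of 24 tested genes risen (0.790% of all genes). H2-Q4 rose over the 9 pairs by 1.00 ± 0.18 (adjusted p = 0.00748), with 1.99, 1.64, 1.13, 1.23 and 1.3 in the low and 0.50, 0.84, 0.40 and −0.055 in the high pairs. H2-T22, another class I gene, had mean responses of 1.27 and 0.33 and rose as well. Class I genes resemble one another, so reads can be split between them in ways the sources used here do not describe. The immunoproteasome subunit Psmb8 had responses of 1.67, 1.69, 1.32, 0.71 and 0.46 and 0.37, −0.081, −0.40 and −0.51, and B2m, the invariant class I chain, mean responses of 0.36 and −0.086, neither passing the test over the 9 pairs. The median response of 17 genes was 0.36 in the low pairs and 0.073 in the high pairs.

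**Figure D3:**
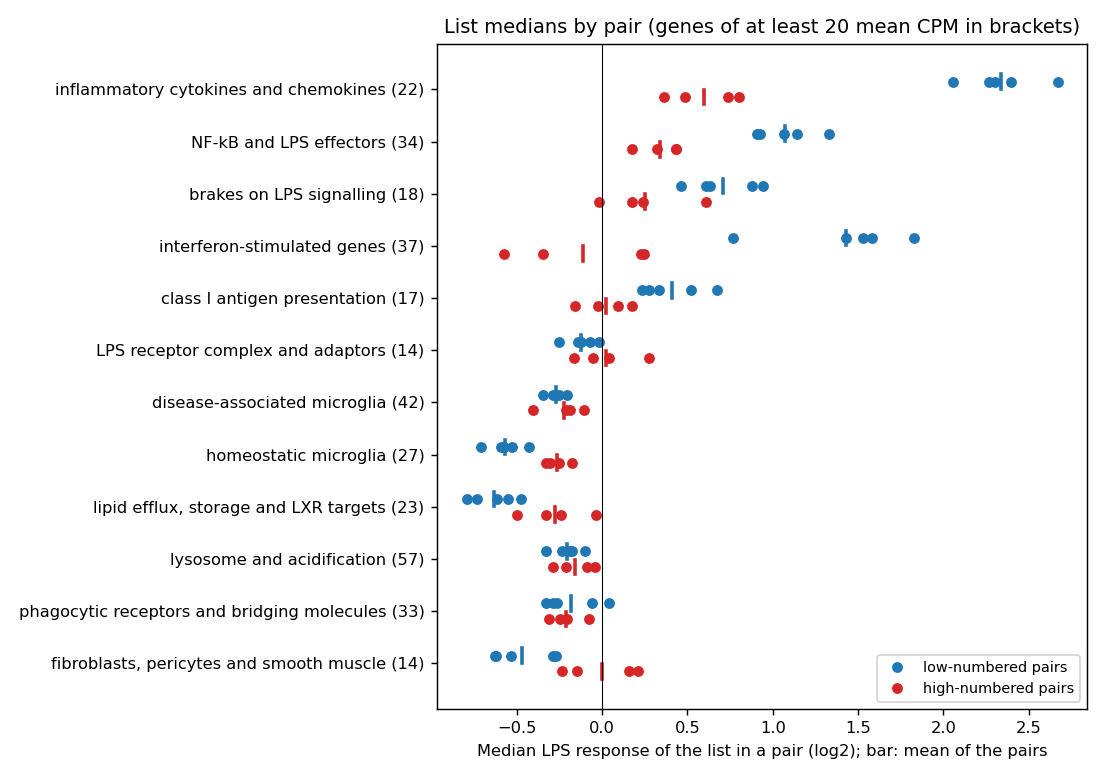
Median LPS response (log2) of 12 gene lists in each pair, blue for the 5 low-numbered and red for the 4 high-numbered pairs, with a bar at the mean of the pair medians and the number of genes in brackets. The cytokine list lies at 2.05 to 2.67 in low and 0.36 to 0.80 in high pairs, the interferon list at 0.77 to 1.83 and −0.57 to 0.25, and the LPS receptor list near 0 in both.

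Among the genes that fell were genes of microglial identity and lipid handling. Igf1, a growth factor that microglia supply to neurons and myelin, went from 766, 642, 999.8, 797 and 652 to 330.1, 196, 325, 282 and 236 CPM in the low pairs and from 686, 541, 140.3 and 87.5 to 600.4, 259, 72.9 and 28.4 CPM in the high pairs. It fell in 9 of 9 pairs (−1.26 ± 0.13, adjusted p = 0.000181), and the responses overlapped through pair 59/60, which fell by 1.62. The smallest change of Igf1 was −0.19, in pair 41/42. Apoe, the lipid carrier, separated the classes: it went from 419, 467, 699, 403 and 595 to 204, 147, 346, 173 and 274 CPM in the low pairs, and from 416, 280.4, 398 and 315 to 284, 169.8, 288 and 224 CPM in the high pairs. The response was −1.21 ± 0.26 (SD, n = 5) against −0.56 ± 0.12 (SD, n = 4), and Apoe fell over the 9 pairs by 0.92 ± 0.12 (log2 ± SE, adjusted p = 0.000669). Trem2, the lipid-sensing receptor of microglia, was at 184, 219, 198, 141 and 232 and 138, 134, 51.7 and 18.7 CPM under vehicle, and at 40.1, 87.4, 93, 35.7 and 76.3 and 103, 60.2, 20.1 and 11.5 CPM after LPS. Its change over the 9 pairs was −1.32 ± 0.17 (adjusted p = 0.000669), with overlapping responses of −1.64 ± 0.45 (SD, n = 5) and −0.91 ± 0.43 (SD, n = 4).

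Cx3cr1, the fractalkine receptor, had responses of −3.64, −2.28, −1.14, −1.25 and −2.69 in the low pairs and −0.59, −0.13, −0.034 and −1.31 in the high pairs. Libraries 57 and 59 held 12.9 and 21.1 CPM of it under vehicle against 84.4 to 257 in the low vehicle libraries. Cx3cr1 was called over the 9 pairs (−1.43 ± 0.32, adjusted p = 0.0344), but not without pair 7/8, 9/10, 11/12, 21/22 or 59/60 (adjusted p = 0.0529 to 0.125). Cd5l, a scavenger protein of macrophages, had −2.93, −3.83, −2.48, −2.30 and −1.35 and −0.19, −1.59, 0.019 and −0.76. Cd5l was called (−1.73 ± 0.37, adjusted p = 0.0238), but not in 6 of the 9 fits without 1 pair (each low pair and pair 51/52, adjusted p = 0.0552 to 0.0822). Hpgds, the prostaglandin D2 synthase of microglia, was lower after LPS in 5 of 5 low pairs (−1.43, −1.60, −1.08, −0.85 and −1.18) and scattered around 0 in the high pairs (−0.78, 0.12, −0.43 and 1.08), and it did not pass the test over the 9 pairs (adjusted p = 0.17). The nuclear receptor Rxra, the partner of LXR, had −1.64, −2.09, −0.47, −1.15 and −0.90 and 0.33, −0.029, 0.47 and −0.38 and did not pass either (adjusted p = 0.428).

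By list, 8 of 38 tested homeostatic microglia genes fell over the 9 pairs and 0 rose. Of all 12284 tested genes, 0.838% fell and 0.790% rose, shares that belong beside each such count in this paragraph. The homeostatic list had a median response of −0.54 in the low and −0.26 in the high pairs. Of the 27 of at least 20 mean CPM, 6 had the lower response in the high pairs. In 3 (Sparc, Itgb5 and Hpgds) it was higher without overlap (1.91% of all genes). Without libraries 57 to 60 the difference for Sparc, a matrix protein also made by fibroblasts, was 0.37 in place of 0.63. Of 35 tested genes of lipid efflux, storage and LXR targets, 7 fell and 1, Ch25h, rose. Apoe, Lrp1 and Nceh1, which were called, and Rxra, which was not, had the higher response in the high pairs without overlap (1.91% of all genes). Ch25h had the lower response in the high pairs without overlap (3.87% of all genes). The list's medians were −0.58 and −0.31. For 43 tested disease-associated microglia genes, 13 fell and 4 rose, with medians of −0.29 and −0.19. Of the 42 of at least 20 mean CPM, 4 had a lower and 2 a higher response in the high pairs without overlap (3.87% and 1.91% of all genes). Of the 67 tested lysosomal genes 9 fell, with medians of −0.26 and −0.10. In 1 of 57 the response was higher without overlap, near the 1.91% of all genes. The vehicle levels of these lists were lower in the high class, which holds the libraries of low macrophage marker sums, with median differences of −0.65, −0.54, −0.58 and −0.44 for the homeostatic, lipid, disease-associated and lysosomal lists. The part of those libraries in these list medians was not tested.

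Rgs2, a regulator that shortens signalling by G protein-coupled receptors, was among the 13 called genes with a smaller fall in the high pairs without overlap. It went from 137, 209.6, 149, 199.9 and 174 to 38.3, 28.4, 30.1, 51.4 and 19.1 CPM in the low pairs, and from 96.2, 47.3, 12 and 26 to 120.4, 16.7, 3.53 and 13.1 CPM in the high pairs. Rgs2 fell over the 9 pairs by 1.81 ± 0.28 (log2 ± SE, adjusted p = 0.00323), with pair 41/42 the exception at 0.32. The difference between the classes was 1.46 in all, 0.66 in female pairs alone and 2.98 in male pairs alone.

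Some genes had a response of opposite sign in the classes. Of the 241 genes with the lower response in high pairs, 212 were above 0 in every low pair, and 36 of these also in every high pair. In 35 every low pair was above 0 and every high pair below 0. Of the 119 with the higher response, 97 were below 0 in every low pair, and 26 of these above 0 in every high pair. Itpr1, an intracellular calcium channel, had −1.02, −0.64, −0.81, −1.12 and −2.17 in the low and 0.48, 0.21, 0.44 and 0.27 in the high pairs, and Rtl8b −1.80, −0.61, −1.15, −0.48 and −1.07 and 1.03, 0.57, 0.74 and 0.082. Fbn1 (fibrillin, a matrix protein) had −0.69, −0.29, −3.89, −1.28 and −0.56 and 0.14, 0.76, 0.84 and 0.025, and Fn1 (fibronectin) −0.65, −0.28, −0.49, −0.55 and −0.068 and 0.39, 0.16, 0.52 and 0.33. Timp2, an inhibitor of matrix proteases, had −0.49, −0.43, −0.79, −1.04 and −0.34 and 0.16, 0.048, 0.82 and 0.046. Msr1, a macrophage scavenger receptor, went the other way, with 0.51, 0.52, 0.73, 0.48 and 0.28 in the low and −0.29, −0.083, −0.0086 and −0.32 in the high pairs. The median difference over 14 fibroblast, pericyte and smooth muscle genes was 0.38, with 1 higher in the high pairs without overlap (1.91% of all genes). None of the genes named in this paragraph passed the test over the 9 pairs.

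**Figure D4:**
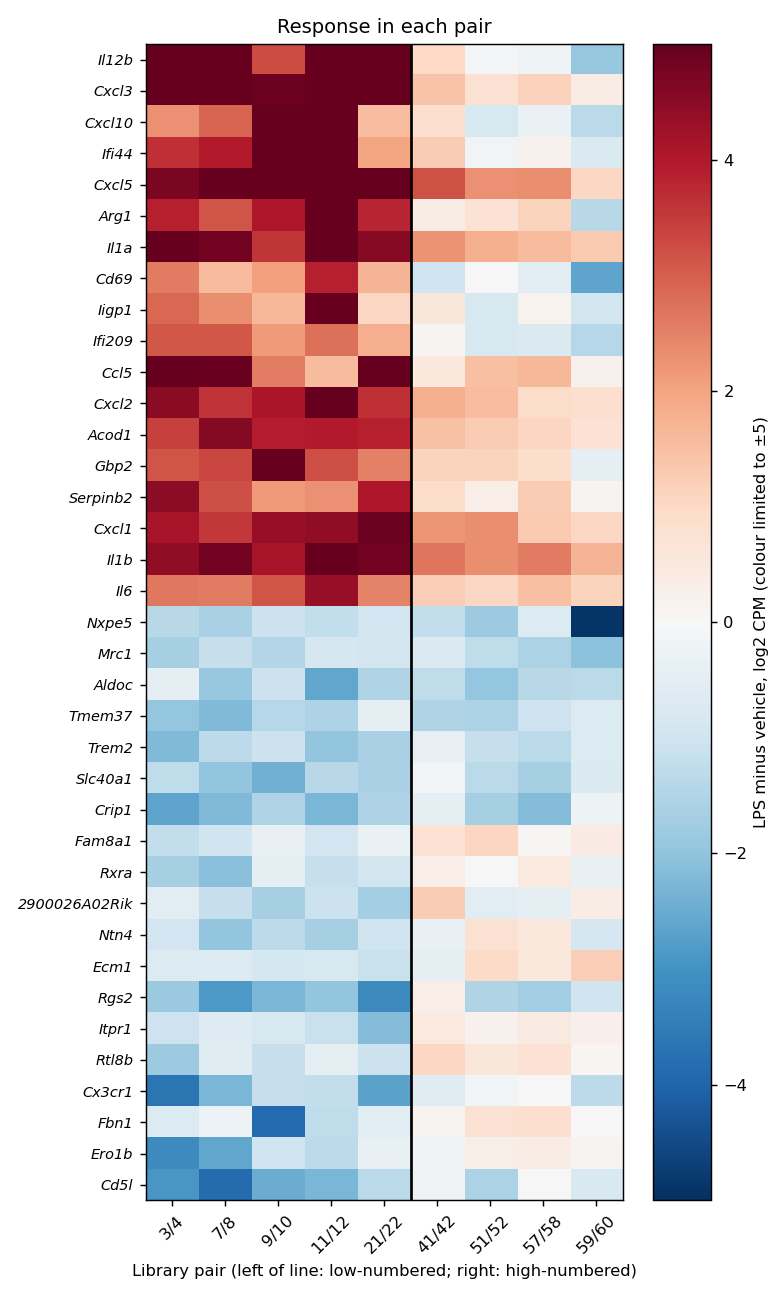
LPS response (log2 CPM, colour limited to ±5) in each of the 9 pairs for 37 genes, those with the largest called changes and those with the largest differences between the classes, sorted by the difference; the black line separates the 5 low-numbered from the 4 high-numbered pairs. The first 18 genes (Il12b to Il6) are red in every low pair and mostly paler or blue in the high pairs, while Mrc1 and Aldoc are blue on both sides of the line.

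Other called genes had responses of like size in both classes. Mrc1, the mannose receptor, went from 390.1, 683, 751, 170.0 and 365 to 123, 311, 272, 96.1 and 193 CPM in the low pairs and from 725, 776, 363 and 199 to 437, 322, 120.4 and 47.9 CPM in the high pairs. Its responses were −1.20 ± 0.36 (SD, n = 5) and −1.41 ± 0.56 (SD, n = 4), and it fell in 9 of 9 pairs (−1.29 ± 0.13, adjusted p = 0.000148). C1qc, a chain of complement C1q, had −0.52 ± 0.17 (SD, n = 5) and −0.68 ± 0.32 (SD, n = 4) and fell in 9 of 9 pairs (adjusted p = 0.00141). Further called genes with a small difference were picked after their values were seen: Ccdc152 (−0.89 and −0.88), Clmp (0.53 and 0.52), Kitl (−0.84 and −0.83) and Aldoc (−1.52 and −1.49). Ccdc152 overlaps Selenop, and reads of the pair may not be separable, since the use of strand in counting is not given in the sources used here. Risen genes of this kind were Timp1 (0.78, 0.77, 0.50, 0.13 and 1.18 and 0.44, 0.42, 1.10 and 0.31), the cytokine Il11 (1.98, 0.70, 0.52, 0.32 and 1.47 and 1.57, 0.83, 1.12 and 0.96) and Lox (0.37 and 0.43). With 5 and 4 pairs, a small difference in means does not show equal responses.

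The levels behind these responses are given as a description, since the classes were chosen on them. Over the 95 risen genes the median difference in level, high minus low, was 0.73 among vehicle libraries and 0.062 among LPS libraries. Without overlap, 28 of them were higher in the high vehicle libraries and 0 lower (5.21% and 3.58% of all genes), against 3 higher and 2 lower after LPS (2.22% and 2.75%). Over the 102 fallen genes the medians were −0.72 and −0.38. The 241 genes with a lower response in high pairs had a median vehicle difference of 0.58 and a median LPS difference of −0.35, with 81 higher in high vehicle libraries and 18 lower in high LPS libraries without overlap. For the cytokine list the 2 medians were 2.18 and 0.14, and for the NF-kB list 0.93 and 0.049. For the brakes they were −0.10 and −0.42.

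**Figure D5:**
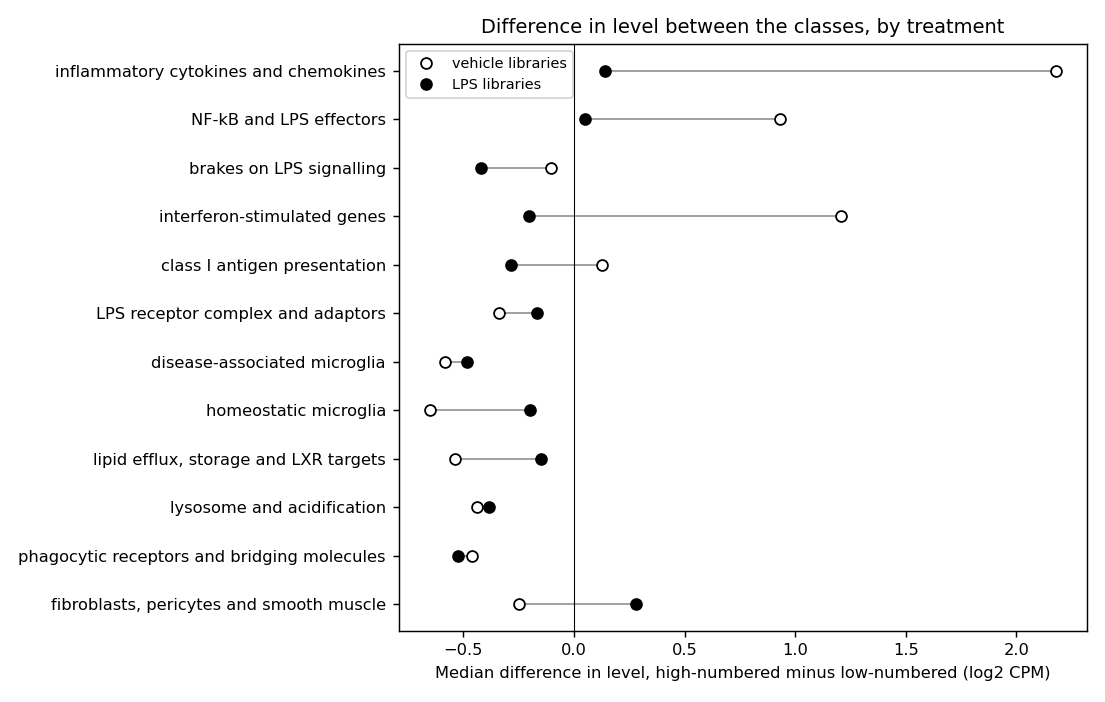
Median difference in level between the classes, high-numbered minus low-numbered (log2 CPM), for 12 gene lists, open circles for the vehicle libraries and filled circles for the LPS libraries. For cytokines (2.18 and 0.14) and interferon-stimulated genes (1.21 and −0.20) the open circle is far right and the filled circle near 0, while the microglial and lysosomal lists are left of 0 in both.

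Genotype was not used by the rule and could be tested. The LPS response of APP and WT pairs differed for 0 of 12284 genes (0%) at an adjusted p of 0.05 (edgeR's quasi-likelihood test), with 277 genes at an unadjusted p under 0.05 and 38 called by DESeq2. The genes with the smallest p were Ndufa4, Thbd and Plxnb2. Between the classes Il1b differed by −1.84 in WT and −2.78 in APP pairs, and Acod1 by −2.63 and −2.99. With 2 or 3 pairs of a class in a genotype, these are values without a test.

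At the expression threshold, the genes just inside were Herc4 (20.01 CPM), with mean responses of 0.20 in the low and −0.67 in the high pairs, and Aldoc (20.02 CPM), given above. Just outside were Ticam2 (19.99 CPM), an adaptor of Tlr4, with 0.70 and 0.70, and Cipc (19.99 CPM), with −0.81 and 0.14.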

How the data were processed

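Per the labels' protocols, 3′ QuantSeq libraries with molecular identifiers were made from RNA of high integrity. Per the submitters' processing notes, FastQC, Trimmomatic, kallisto and DESeq2 were used; no version, genome build or annotation is given in the sources used here. The values deposited by the authors are estimated counts per gene symbol, made with kallisto per the submitters' processing notes and given as whole numbers.

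CPM values were computed here with TMM factors (edgeR 4.0.16, limma 3.58.1, R 4.3.3), and log2 CPM with a prior count of 2. The response is LPS minus vehicle within a pair. Of 16941 genes, filterByExpr kept 12284 and left out 4657. The edgeR quasi-likelihood F test used pair as a block, with Benjamini-Hochberg adjustment over all tested genes. Pairs come from consecutive library numbers. Both libraries had the same sex in 9 of 9 pairs, and their deviations from the group means correlated at 0.302 to 0.643. For each vehicle library, the best match among the LPS libraries of its genotype was its partner. Tests were checked on simulated data. DESeq2 1.42.0 and other filters, scalings and pairings were tried.

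Library totals were 13065257 to 31248988 counts. The members, lists and comparison were chosen with earlier results of these data known. Named genes follow a rule: up to 10 called genes in each direction, up to 10 without overlap in each direction, up to 4 per list described, a fixed set of LPS and microglia genes, and genes said to be named after their values were seen. The members of lists mentioned beside their counts were named from the list tables. The promoter windows matched 4972 of 6222 genes. WT LPS replicate 1 was left out of all comparisons.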

Additional observations from a re-analysis of the deposited data

Results flagged for a closer look

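Sets of 4 or 5 pair values were examined for the called, non-overlapping and fixed genes of the naming rule and for the list medians. In 8 of 178 sets, 1 pair stood far from the rest of its class by Dixon's test at the 95% level, which chance alone flags in about 1 of 20 sets. In the low pairs these were Arg1 in pair 11/12 (response 8.03, with 0 vehicle counts), Iigp1 in pair 11/12 (7.58, with a vehicle level near the floor), Fbn1 in pair 9/10 (−3.89), and the median of the border-associated macrophage list in pair 7/8 (−1.14). In the high pairs they were Aldoc in pair 51/52 (−1.95), Gbp2 in pair 59/60 (−0.43), Nfkbia in pair 59/60 (0.30) and the median of the class II antigen presentation list in pair 41/42 (−0.14).

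For 8 named genes with a mean of at least 20 CPM, every low pair lay on one side of 0 and every high pair on the other. The difference was not tested, because the rule uses this contrast. The response was below 0 in the low pairs and above 0 in the high pairs for 6 genes, with differences in mean response (high minus low) of 1.35 for Fam8a1, 1.78 for Fbn1, 0.76 for Fn1, 1.5 for Itpr1, 1.63 for Rtl8b and 0.89 for Timp2. It was above 0 in the low pairs and below 0 in the high pairs for Msr1 (−0.68) and Otulin (−0.90).

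WT LPS replicate 1, which entered no comparison, was looked at for 12 genes, with CPM scaled over all 19 libraries, and was above every vehicle library of both classes for 6 of them. It held 193.8 CPM of Il1b, 97.1 of Il1a, 1111 of Cxcl1, 280.8 of Acod1, 3237 of Sod2 and 1101 of Ccl5. It was not for Cxcl2 (725.5 CPM against a vehicle maximum of 2167), Ccl2 (699 against 1434), Isg15 (354 against 1681) and Ifit3 (47.8 against 304), although it held more of each than every vehicle library of the low class. Rgs2 stood at 69 CPM and Igf1 at 315, below every vehicle library of the low class.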

How the results depend on the processing

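Over the 9 pairs 200 genes were called with the replicate block by library pair. There were 3 calls with no replicate block, 16 with a replicate block by the numbers of the titles, 581 with DESeq2 (which held all 200 of the main calls), 318 with no filter on low counts and 314 with only genes of at least 20 mean CPM. Leaving out 1 pair gave 97 to 215 calls: 131 without pair 3/4, 97 without 7/8, 102 without 9/10, 118 without 11/12 and 114 without 21/22. DESeq2 size factors gave 196 and leaving out libraries 57 to 60 gave 239, of which 152 were shared. The genotype difference in response gave 0 calls under every setting run but DESeq2, which called 38. Genes without overlap and with a lower response in the high pairs, sign included, numbered 241, and 488 without libraries 57 to 60. Those with a higher response numbered 119, 77 at a threshold of 50 mean CPM and 301 without libraries 57 to 60. Leaving out 1 pair gave 299 to 360 and 145 to 221 (182 without pair 21/22, 221 without pair 51/52), and fewer pairs overlap less often by construction. The median cytokine difference of −1.98 was −1.56 without libraries 57 to 60, −1.74 in WT pairs, −2.27 in APP pairs, −1.63 in male pairs (chosen after seeing the data, with 1 high pair), −1.70 with no replicate block and −2.15 to −1.77 with 1 pair left out. The interferon-stimulated median of −1.57 was −0.99 in male pairs. None of the 65 named genes without overlap changed the sign of its class difference under any alternative run, and 42 of the 101 with overlap did. For genes without overlap, any choice among the same pairs keeps the sign by construction. The alternatives that leave out pairs are therefore no check on these 65. Of called named genes not given above, Nxpe5, Crip1 and C1qa lost the call in 7, 2 and 3 of the fits without 1 pair. The cause of these changes was not tested. The depth sets a floor for genes at 0 counts only.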

Other observations

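The genes of arginine metabolism and early activation gave further examples. Arg1 (arginase) stood at 3.07, 3.55, 2.56, 0 and 10.7 CPM under vehicle and 46.5, 32.1, 44.1, 24 and 150.4 after LPS in the low pairs, and at 38.3, 61, 16.7 and 99.6 and 49.3, 102, 36.6 and 37.9 CPM in the high pairs, without overlap in response. Cd69, an early activation marker, had responses of 2.60, 1.58, 2.06, 3.89 and 1.70 in the low pairs and −0.98, 0.019, −0.56 and −2.65 in the high pairs. Neither passed the test over the 9 pairs (adjusted p = 0.124 and 0.704, edgeR). Ch25h, which makes 25-hydroxycholesterol, rose over the 9 pairs by 1.07 ± 0.24 (adjusted p = 0.0338), with 2.55, 1.80, 1.3, 1.3 and 1.66 in the low and 0.93, 0.42, −0.17 and −0.12 in the high pairs. Of the 241 genes with a lower response in the high pairs, 195 had a promoter window. Of these, 7.18% held the kB-type letters and 14.4% the ISRE-type letters. The shares were 1.87% and 4.43% of the 4972 genes with a window among those of at least 20 mean CPM. They were 0% and 3.09% of the 97 genes with a window and a higher response. The gene sets come from the contrast that the rule used, so these shares are a description and nothing is read from them.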
